A study of Mus musculus with 2 samples.

Results

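Chromatin accessibility at 10 genes of the Notch pathway was examined in primary murine cardiac fibroblasts. The genes were the receptors Notch1, Notch2 and Notch3, the ligands Jag1 and Jag2, the DNA-binding factor Rbpj, and the target genes Hes1, Hey1, Hey2 and Heyl. Their peaks were taken as the rows of the deposited ATAC-seq table that carry one of these symbols, which gave 50 of 63316 peaks. Of the 10 genes, 8 had at least 1 peak, among 16934 genes with a peak in the whole table. Rbpj had 15 peaks, Notch2 had 14, Jag1 had 7, Heyl had 5, Notch1 had 4, Notch3 and Hes1 had 2 each, and Hey2 had 1. No peak was assigned to Jag2 or Hey1.

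In ATAC-seq a transposase tags accessible DNA with sequencing adapters, and regions that are more open give more reads. Both libraries came from primary cardiac fibroblasts of mouse heart that were exposed to TGF-β (5 ng/ml, 24 h), an inducer of the myofibroblast state. The cells had been transfected beforehand with scrambled siRNA (SCR, labelled NC) or with siRNA against Piezo2 (siPiezo2), which encodes a mechanosensitive ion channel. The label of the control library gives TGF-β alone, and its scrambled siRNA is taken from the study's text. With 1 library per condition, no difference given here has a replicate check and no test of the conditions was possible. The study's mice were on a C57BL/6 J background, the age and number of the animals behind these cultures are not given in the sources used here, and no library of untreated cells was analysed here. The design text of the series instead names a knockout of Tet3 by Cre, and the methods describe minced tissue and a different kit from the one in the labels. These differences were not settled, and the groups rest on the labels of the samples and the treatment given in the study.

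Notch receptors are activated by ligands of the Jagged and Delta families on neighbouring cells. A metalloprotease and then γ-secretase cut the bound receptor, and the freed intracellular part enters the nucleus, where it joins RBPJ and a Mastermind coactivator at genes such as those of the HES and HEY families. HES and HEY proteins are mostly repressors of transcription. In the heart the pathway is best known for its part in valves, coronary vessels and the mural cells around them, and it also crosses with TGF-β signaling in mesenchymal cells.

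Each value below is a normalized read density, in reads per 1000 bp of a 2000 bp window on each peak, as scaled by the authors. Ratios are log2((siPiezo2 + 1)/(SCR + 1)), so that a negative value is a lower density after Piezo2 knockdown, and for a gene the densities were first summed over its peaks. Intervals are 95% exact binomial intervals from the reads recovered behind the densities, and they cover counting error only. The peaks of the Notch genes held 33 to 186 reads in the SCR library (median 77) and 10 to 109 reads in the siPiezo2 library (median 39). The windows of all peaks held 4615335 and 2754046 reads, a ratio of 0.597. Peaks called in both libraries varied 2.04 times as much as counting error allows, and intervals widened for this (by 1.43 times) are given beside each interval that lies clear of 0 and whose widened form holds 0, and beside the main values. Of the 50 peaks, 24 share part of their window with another peak of the same gene, in 11 groups, so that their values are not independent.

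The markers of cardiac fibroblasts were largely present, with a peak at 7 of 8 genes (none at Thy1), whose densities summed to 1006 (SCR) and 923 (siPiezo2). Of these sums, Ddr2 with its 13 peaks held 464 and 463 (-0.0027). The log2 ratios of the others were -0.44 (Col1a1), -0.50 (Col1a2), -0.37 (Col3a1), -0.16 (Pdgfra), -0.032 (Tcf21) and 0.21 (Dcn). Peaks were also assigned to 5 of 7 endothelial markers (509 and 497), 5 of 7 mural markers (608 and 491), 3 of 6 cardiomyocyte markers (146 and 152) and 4 of 6 leukocyte markers (203 and 202). Per gene with a peak, the median SCR density was 98.2 for fibroblast, 135 for endothelial and 139 for mural markers. It was 50.2 for cardiomyocyte and 52.3 for leukocyte markers. The cardiomyocyte genes Myh6, Ttn and Nppa and the macrophage genes Adgre1 and Cd68 had no peak. In a bulk library, fewer cells of a type and less open chromatin per cell cannot be told apart.

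Of the 8 Notch genes with a peak, Heyl was the most changed and was lower after Piezo2 knockdown. Notch1, Notch2 and Notch3 had lower values to a lesser degree, Jag1, Hes1 and Hey2 lay near 0, and Rbpj was slightly above 0. All peaks of Heyl, Notch1 and Notch3 were called in SCR only. Over the whole table such peaks had a median of -0.23, against 0.0025 for peaks called in both libraries. Summed over the genes, 1 of 8 (Heyl) was lower past 1.5-fold, where 6.6% of all genes were, and 0 of 8 were higher past 1.5-fold, where 1.54% of all genes were. The median log2 ratio was -0.18 over the 8 genes and -0.093 over all genes. Under a median-of-ratios scaling the median of all genes was 0.043 instead of -0.093, so the genes are best read against that shift. The plot of log2 ratios by gene shows Heyl apart from the other members.

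**Figure D1:**
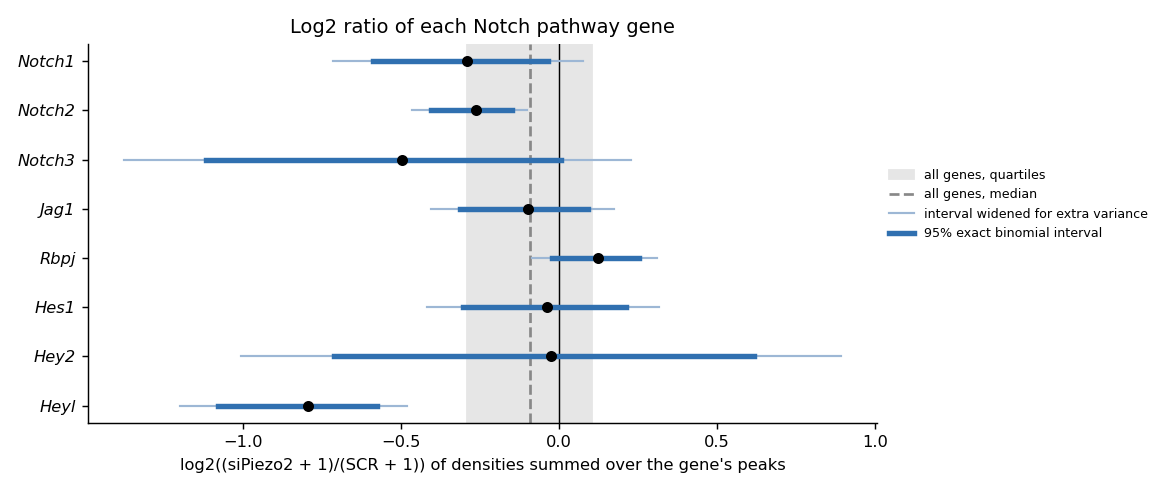
Log2 ratio of summed read density (x axis, log2 scale) for each of the 8 Notch pathway genes with a peak (y axis), 1 library per condition. Points are the ratios, thick bars the 95% exact binomial intervals, thin bars the widened intervals, the dashed line the median of all genes (-0.093) and the shaded band their quartiles; Heyl at -0.80 is the only member whose intervals lie wholly left of the band.

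Among single peaks, 10 of 50 were lower past 1.5-fold, against 14.2% of all peaks, and 2 of 50 were higher past 1.5-fold, against 3.21% of all peaks. The 10 lower peaks belonged to Notch2 (4), Heyl (3) and Rbpj (3) and lay in 8 separate groups of windows, and 9 of them were in introns. The 2 higher peaks were intronic peaks of Notch2 and Rbpj. None of the 8 promoter peaks within 1 kb of a transcription start passed 1.5-fold in either direction, and of all such promoter peaks 6.33% were lower and 1.98% higher. This holds for the deposited scaling, and the Notch2 promoter peak (0.55) was past 1.5-fold under median-of-ratios scaling (0.68), with equal total density (0.63) and with recovered reads at the same total (0.59). The exact interval lay below 0 for 9 of 50 peaks, against 13.8% of all peaks, and above 0 for 4 of 50, against 4.03% of all peaks. With the widened intervals these numbers were 7, against 5.2% of all peaks, and 2, against 1.27%. The peaks just past the threshold were the intronic peak 0.6 kb into Notch2 (0.68) and the one 6.5 kb into Rbpj (-0.70, and -0.57 under median-of-ratios scaling), and the peaks just within it were an intronic peak of Heyl (-0.56), one of Rbpj (0.55) and the Notch2 promoter peak (0.55).

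The median over the 50 peaks was -0.22, with 35 (70.0%) below 0, and over all peaks it was -0.13, with 63.7% below 0. Peaks of introns, the class that holds 35 of the 50, had a median of -0.24 against -0.17 for all intronic peaks, and 9 of 35 (25.7%) were lower past 1.5-fold against 15.6%. Promoter peaks within 1 kb had a median of -0.12 (n = 8 peaks) against -0.030. The 17 peaks called in both libraries had a median of 0.12 against 0.0025 for all such peaks. The 33 peaks called in SCR only had a median of -0.33 against -0.23, and 9 of them (27.3%) were lower past 1.5-fold against 19.1%. The share of peaks called in both libraries was 34.0% at the Notch genes and 33.8% in the whole table, and no Notch gene peak was called in siPiezo2 only, where 2.16% of all peaks were. Whether a peak is called depends on the same reads as its density, so these splits are descriptions.

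**Figure D2:**
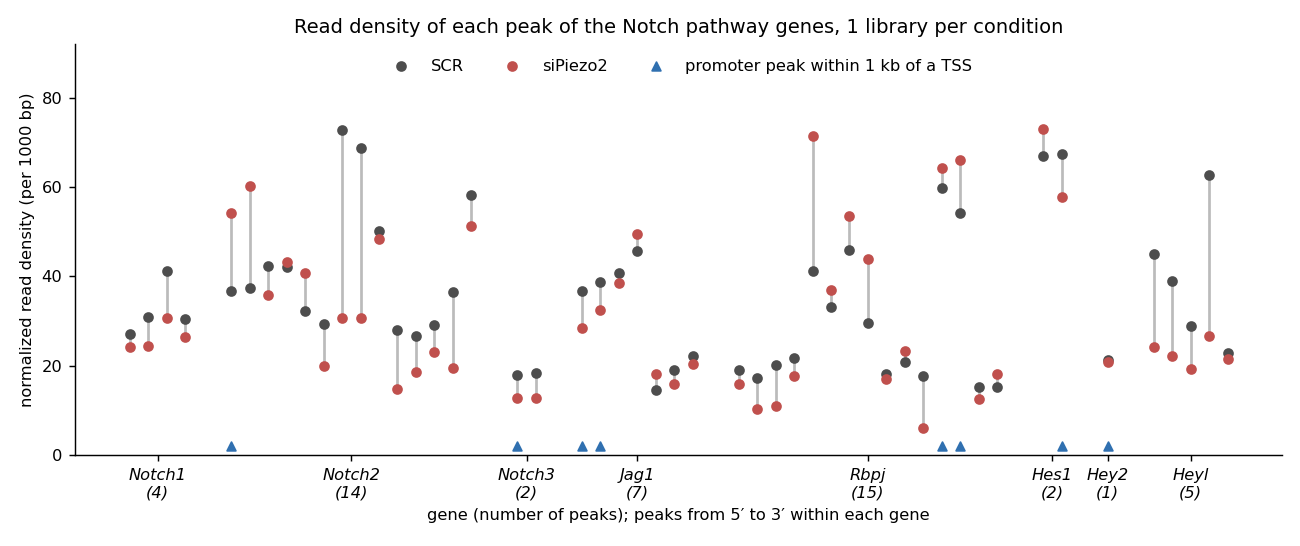
Normalized read density per 1000 bp (y axis, from 0) of the 50 peaks of the Notch pathway genes (x axis, by gene and from 5′ to 3′ within it), 1 library per condition. Each grey line joins the SCR value and the siPiezo2 value of a peak and triangles mark promoter peaks within 1 kb of a start; the long downward lines are at Notch2 (72.9 to 30.8) and Heyl (62.8 to 26.6), and the longest upward line is at Rbpj (41.2 to 71.4).

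Notch2, a receptor with broad expression in mesenchymal cells, spans chr3:97920843-98057677 of GRCm39 on the plus strand. Its densities summed to 591 (SCR) and 492 (siPiezo2), giving -0.26 on the log2 scale (interval -0.40 to -0.15). The value was -0.12 under median-of-ratios scaling and -0.0033 with only the 7 peaks called in both libraries. The sum holds peaks with ratios on both sides of 0, above it at the start and below it at most peaks deeper in the introns.

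The Notch2 promoter peak, chr3:97920559-97921040, centred 44 bp before the start, had 36.8 in SCR against 54.3 in siPiezo2, which is 0.55 on the log2 scale (interval 0.115 to 0.999, widened -0.076 to 1.19, which holds 0). The neighbouring peak 0.6 kb into intron 1, chr3:97921269-97921599, shares part of its window and had 37.4 and 60.3 (0.68, interval 0.26 to 1.12, widened 0.077 to 1.30). Both were called in both libraries, and the latter lies at percentile 97.9 of the log2 ratios of all peaks. Past 1.5-fold in the other direction was a pair of overlapping windows 29.0 and 29.9 kb downstream of the start, also in intron 1. The first, chr3:97949674-97949975, had 72.9 and 30.8, from 186 and 47 reads (-1.22, interval -1.76 to -0.80, widened -1.98 to -0.61). The second, chr3:97950512-97950884, had 68.8 and 30.7, from 175 and 47 reads (-1.14, interval -1.68 to -0.71, widened -1.90 to -0.52). In the SCR library this site was the densest of the gene, and in the siPiezo2 library it was less dense than the promoter. The intervals of the promoter peak and of the site at 29.0 kb do not overlap, with or without widening.

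Further along Notch2, the peak at 50.1 kb in intron 2, chr3:97970738-97971060, had 28.1 in SCR and 14.9 in siPiezo2 (-0.87, interval -1.69 to -0.26, widened -2.02 to 0.025). The peak at 88.3 kb in intron 9, chr3:98008994-98009369, had 36.5 and 19.5 (-0.87, interval -1.57 to -0.32, widened -1.86 to -0.077). Its strongest peak by mean density, at 93.3 kb in intron 11, had 58.1 and 51.3 (-0.18, interval -0.60 to 0.22). The other 7 peaks of the gene had log2 ratios between -0.53 and 0.33, and none of their intervals excluded 0. The SD of the log2 ratios over the 14 peaks was 0.59, at percentile 97.0 among the 605 genes with 10 or more peaks, whose median SD was 0.38. These SDs include counting error, with no allowance for depth. Having both a lower and a higher peak past 1.5-fold was shared by 152 of those 605 genes (25.1%).

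Notch1, the receptor with the widest part in development, spans chr2:26347915-26406675 on the minus strand. Its peaks summed to 130 (SCR) and 106 (siPiezo2) (-0.29, interval -0.59 to -0.036, widened -0.72 to 0.075). The peak nearest its start, 134 bp into the gene, had 27.1 and 24.3 (-0.15, interval -0.78 to 0.42). The strongest, in intron 2 at 22.0 kb, had 41.2 and 30.7 (-0.41, interval -0.97 to 0.068). All 4 peaks had log2 ratios below 0 (-0.41 to -0.15), none passed 1.5-fold, and all were called in SCR only.

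Notch3, a receptor best known from pericytes and vascular smooth muscle, spans chr17:32339794-32385826 on the minus strand. It had a promoter peak 104 bp before the start with 18.1 in SCR and 12.8 in siPiezo2 (-0.47, interval -1.36 to 0.26). Its other peak, in exon 24, had 18.5 and 12.8 (-0.50, interval -1.39 to 0.23). Both lie low in the table, at percentiles 13.3 and 14.2 of mean density, with 41 and 42 reads in SCR and 21 each in siPiezo2. The sum over both peaks was 36.5 and 25.6 (-0.50, interval -1.12 to 0.0052), so at this depth a difference from 0 was not detectable. With recovered reads at the same total the gene was at -0.23, where the median of all genes was 0.030.

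Jag1, a ligand that activates Notch receptors on adjacent cells, spans chr2:136923376-136958564 on the minus strand. Its 7 peaks summed to 218 in SCR and 203 in siPiezo2 (-0.10, interval -0.31 to 0.093). Under other scalings it stayed close to the median of all genes, at 0.042 against 0.043 under median-of-ratios scaling and 0.013 against 0.030 with recovered reads at the same total. With other peak sets it lay further from that median. It was -0.12 against 0.0086 with the 1 peak called in both libraries. With promoter peaks alone it was -0.30 against -0.025, and with the strongest peak 0.11 against -0.062. The promoter peak 450 bp before the start had 38.8 and 32.5 (-0.25, interval -0.78 to 0.24), and the one 899 bp before it, with an overlapping window, had 36.7 and 28.5 (-0.35, interval -0.93 to 0.16). The strongest peak, 2.3 kb into the gene in intron 2, had 45.6 and 49.4 (0.11, interval -0.33 to 0.54). No peak of Jag1 passed 1.5-fold and every interval held 0. For Jag2, the second Jagged ligand, 1 intergenic peak had its start as the nearest, 12362 bp away, with 22.2 and 30.4 (0.44, interval -0.14 to 1.04).

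Rbpj encodes the DNA-binding protein through which all Notch receptors reach their target genes, and it spans chr5:53623494-53814704 on the plus strand. Its peaks summed to 430 (SCR) and 469 (siPiezo2) (0.12, interval -0.022 to 0.25), and the value was 0.21 to 0.26 under the other scalings to a common level, 0.35 with only the 6 peaks called in both libraries, 0.30 without the weakest 25% of peaks and -0.53 with unscaled reads, where the median of all genes was -0.71. Its promoter peaks are centred 123.2 and 124.3 kb downstream of the outermost start, each within 1 kb of a later start. There, in overlapping windows, the densities were 59.8 and 64.4 (0.11, interval -0.28 to 0.48) and 54.2 and 66.1 (0.28, interval -0.10 to 0.66). The former is also the strongest peak of the gene. Some intronic peaks of Rbpj differed more than its promoters did, in both directions, and others did not.

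The highest ratio among the Notch genes was at the peak 24.7 kb into intron 1 of Rbpj, chr5:53647946-53648518, with 41.2 in SCR and 71.4 in siPiezo2, from 106 and 109 reads (0.78, interval 0.39 to 1.19, widened 0.22 to 1.36). It lies at percentile 98.7 of all peaks. The peaks from 24.7 to 45.5 kb, all 4 called in both libraries, had log2 ratios of 0.78, 0.15, 0.22 and 0.55. The windows of those at 43.5 and 45.5 kb overlap. The interval of the peak at 45.5 kb was 0.073 to 1.06, and its widened interval (-0.14 to 1.28) held 0. The 3 peaks lower past 1.5-fold had low density and lay before this stretch and at 103.2 kb. The peaks next after the stretch, at 70.7 and 77.5 kb, were at -0.091 and 0.16. Those at 141.3 and 166.1 kb were at -0.24 and 0.23. At 6.5 kb the density was 17.4 and 10.3 (-0.70, interval -1.71 to 0.061), and at 14.0 kb it was 20.2 and 11.0 (-0.82, interval -1.80 to -0.11, widened -2.19 to 0.22). At 103.2 kb, in intron 2, it was 17.8 and 6.19, from 39 and 10 reads (-1.38, interval -2.79 to -0.59). The last of these is among the weakest peaks of the table (percentile 2.35 of mean density). The SD over the 15 peaks was 0.56, at percentile 95.7 among the 605 genes. It includes counting error, which is larger at weak peaks such as these, and no allowance was made for depth.

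Upstream of Rbpj, a pair of intergenic peaks with overlapping windows, centred 36.2 and 35.9 kb before the outermost start, was also higher after Piezo2 knockdown. The first had 30.7 in SCR and 58.5 in siPiezo2 (0.91, interval 0.48 to 1.39, widened 0.28 to 1.59) and lies at percentile 99.3 of all peaks. The second had 29.0 and 49.1 (0.74, interval 0.28 to 1.24). The second was called in siPiezo2 only, as was a peak 14.1 kb upstream with 13.7 and 20.5 (0.55, interval -0.15 to 1.34). The upstream peak closest to the gene, at 5.7 kb, had 23.6 and 23.5 (-0.0031), and the 2 peaks beyond its end had 16.0 and 12.1 (-0.38) and 18.4 and 24.5 (0.40), all with intervals that held 0. These peaks carry no gene symbol in the table, and Rbpj is merely the gene with the nearest start.

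**Figure D3:**
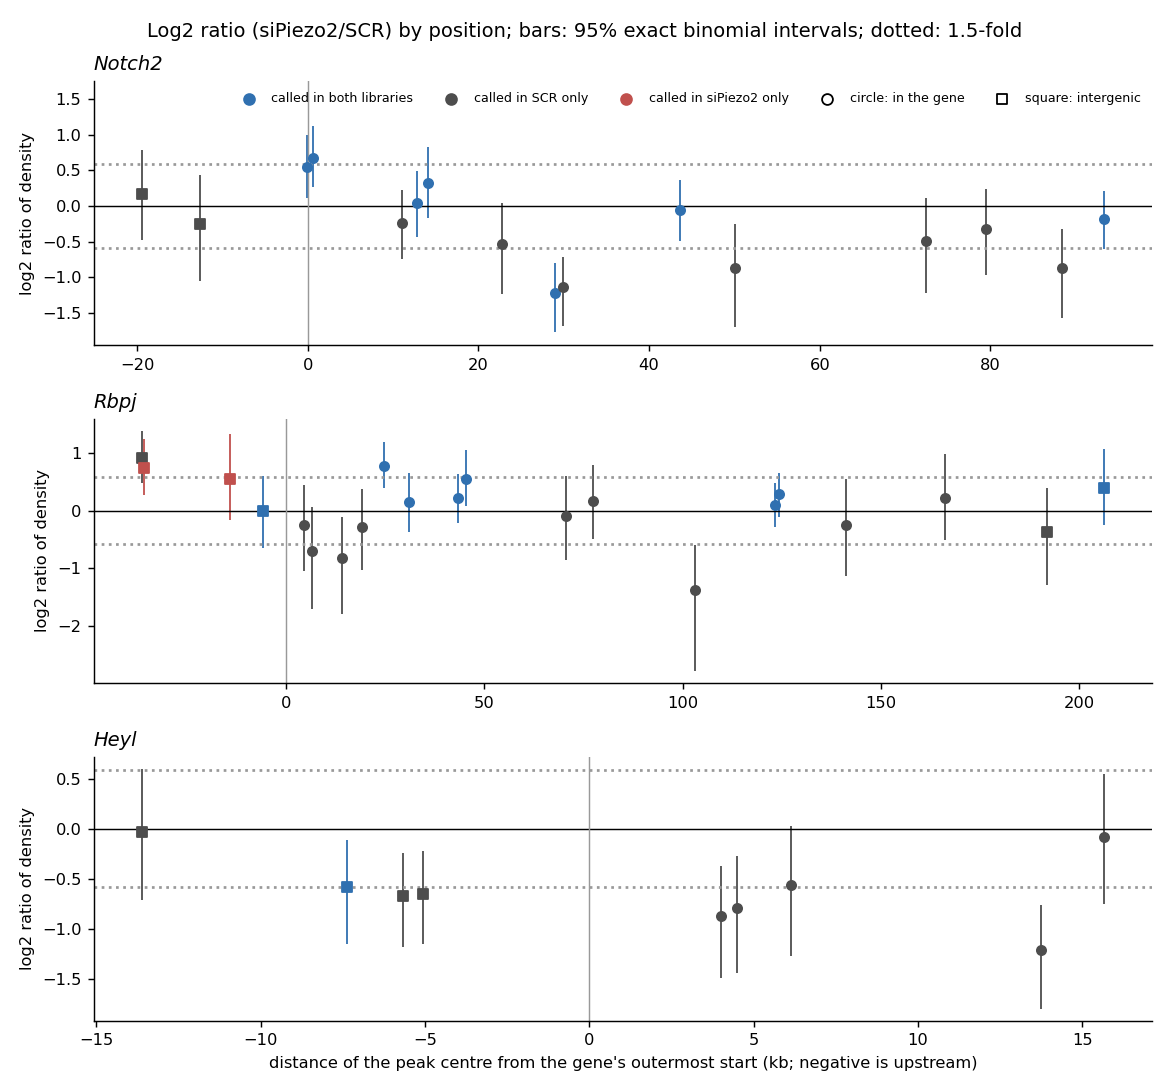
Log2 ratio of read density (y axis, log2 scale) against the distance of the peak centre from the outermost start in kb (x axis) for Notch2, Rbpj and Heyl, 1 library per condition. Circles are peaks of the gene, squares intergenic peaks nearest to it, colours the library in which the peak was called, bars 95% exact binomial intervals and dotted lines 1.5-fold; Notch2 goes from 0.55 at the start to -1.22 at 29.0 kb, Rbpj has values on both sides of 0, and all 9 points of Heyl lie below 0, of which those at 15.7 kb (-0.078) and 13.6 kb upstream (-0.031) are above the median of all peaks (-0.13).

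Heyl, a HEY family repressor that is a target of Notch signaling and is expressed strongly in mural cells, spans chr4:123127349-123143668 on the plus strand. Its 5 peaks summed to 199 in SCR and 114 in siPiezo2, from 487 and 180 reads (-0.80, interval -1.08 to -0.58, widened -1.20 to -0.48). This lies at percentile 2.66 of all genes, and the value was between -0.71 and -0.66 under the other scalings to a common level. All 5 peaks were called in SCR only and none is a promoter peak, so Heyl has no value with only peaks called in both libraries. Of all peaks called in SCR only, 19.1% were lower past 1.5-fold, against 5.79% of those called in both. The percentile among all genes makes no allowance for this. Each Heyl peak had a log2 ratio below 0, 3 of them past 1.5-fold, and the intervals of the other 2 held 0.

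In intron 1 of Heyl, the peak at 4.0 kb, chr4:123131211-123131474, had 45.0 in SCR and 24.2 in siPiezo2 (-0.87, interval -1.49 to -0.37), and it is the peak nearest the start. The peak at 4.5 kb, chr4:123131741-123131941, had 39.0 and 22.2 (-0.79, interval -1.44 to -0.27). The peak at 6.1 kb, whose window overlaps theirs in a chain, had 29.0 and 19.3 (-0.56, interval -1.27 to 0.022). The strongest peak of the gene lay in the 3′ UTR at 13.7 kb, chr4:123140798-123141364. It had 62.8 and 26.6, from 158 and 41 reads (-1.21, interval -1.80 to -0.76), at percentile 1.04 of all peaks. The last peak, at 15.7 kb in the 3′ UTR, had 22.9 and 21.6 (-0.078, interval -0.75 to 0.54), above the median of all peaks (-0.13), and was at 0.12 with recovered reads at the same total. Each of the 5 windows overlaps another. With only 3 peaks, kept from the lowest position up so that windows do not overlap, the gene was at -0.95 (interval -1.31 to -0.67). This choice leaves out the peaks at 4.5 kb (-0.79) and 15.7 kb (-0.078), and so the one nearest to 0.

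The 4 intergenic peaks upstream that are nearest to Heyl also had ratios below 0. The peak 7.4 kb upstream had 44.7 and 29.5 (-0.58, interval -1.15 to -0.11, widened -1.38 to 0.10). Those at 5.7 and 5.1 kb upstream had 56.4 and 35.1 (-0.67, interval -1.18 to -0.24) and 57.8 and 36.5 (-0.65, interval -1.15 to -0.23). The windows of these 3 peaks overlap in a chain, so that their values are not independent. The peak 13.6 kb upstream had 22.1 and 21.6 (-0.031, interval -0.71 to 0.60), and was at 0.17 with recovered reads at the same total. Among the mural markers, Rgs5 had summed densities of 127 (SCR) and 56.0 (siPiezo2, -1.16) and Pdgfrb of 166 and 120 (-0.46), and Myh11 had 139 and 119 (-0.23), while those of Cspg4 (147 and 165, 0.16) and Abcc9 (29.3 and 31.4, 0.095) were not lower and Kcnj8 and Mcam had no peak. A part of mural cells in the Heyl and Notch3 values was not tested.

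Hes1, a repressor that responds quickly to Notch, spans chr16:29884158-29886614 on the plus strand and had the densest promoter region of the members. Its peak 47 bp before the start had 67.3 in SCR and 57.8 in siPiezo2 (-0.22, interval -0.62 to 0.15). The peak 1.2 kb before the start, its strongest and with an overlapping window, had 67.1 and 73.0 (0.12, interval -0.24 to 0.47). The sum was 134 and 131 (-0.038, interval -0.30 to 0.21), above the median of all genes (-0.093). It was also above that median under median-of-ratios scaling (0.10 against 0.043) and with equal total density (0.049 against -0.0076), and below it with recovered reads at the same total (-0.10 against 0.030). The 4 intergenic peaks within 9 kb of the gene had log2 ratios from -0.068 to 0.41, and every interval held 0. A peak 45.7 kb away from the nearest Hes1 start, chr16:29930423-29930768, stood apart with 42.0 and 15.2, from 101 and 24 reads (-1.41, interval -2.22 to -0.86), at percentile 0.397 of all peaks. A difference at the Hes1 promoter was thus not detectable at this depth, while that of the distal peak, which carries no gene symbol, was larger than counting error.

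Hey2, a repressor known from cardiac muscle and vessels, spans chr10:30708355-30718797 on the minus strand and had a single peak 77 bp before its start. The densities were 21.3 in SCR and 20.9 in siPiezo2, from 50 and 34 reads (-0.025, interval -0.71 to 0.62). Under the other scalings to a common level it was 0.059 to 0.19, where the median of all genes was -0.0076 to 0.043. Of the 4 intergenic peaks nearest to Hey2, the one 43.3 kb upstream had 19.0 and 6.80, from 42 and 11 reads (-1.36, interval -2.68 to -0.59). The other 3 had ratios from -0.50 to 0.13 with intervals that held 0. No peak of any kind was nearest to Hey1.

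In all, 27 intergenic peaks had the start of a Notch gene as the nearest. Of these, 5 were lower and 2 higher past 1.5-fold, or 18.5% and 7.41%, against 17.3% and 4.02% of all distal intergenic peaks. Their median was -0.0031 against -0.18. The plot of all log2 ratios sets the 50 peaks of the Notch genes, which ran from -1.38 to 0.78, against the whole table, which ran from -2.87 to 2.11.

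**Figure D4:**
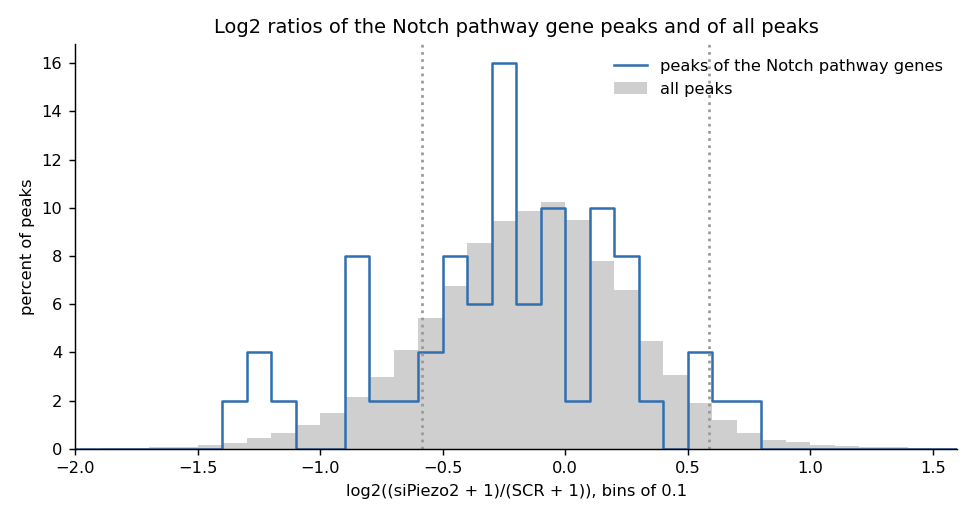
Percent of peaks (y axis) by log2 ratio of read density in bins of 0.1 (x axis, log2 scale), for all 63316 peaks (grey bars) and the 50 peaks of the Notch pathway genes (blue line), 1 library per condition. Dotted lines mark 1.5-fold; 10 Notch gene peaks lie left of the lower line and 2 right of the upper line, around a median of -0.22.

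The promoters were then set beside the start peaks. Promoter windows of 250 bases before the start were found for 7 of the 10 members, as 8 windows, in the RefSeq table for GRCm38.p6, another build than that of the peaks, so windows and peaks are joined by gene only. The core letters bound by RBPJ (TGGGAA, or TTCCCA on the other strand) were in 3 of the 8 windows and in 21.6% of 32851 windows of the same length. Both Rbpj windows are among the 3 and overlap, so that 1 of their sites is counted in each, and the genes that hold the core are Rbpj and Hey2. A C-site of HES and HEY repressors (CACGCG, or CGCGTG) was in 2 windows, against 7.62% of all, and their E-box (CACGTG) in 0, against 6.02%. The GC box (GGGCGG, or CCGCCC) was in 5 windows, against 32.7%, and the TEAD core (GGAATG, or CATTCC), which overlaps the RBPJ core in the Hey2 window, in 3, against 12.6%. The ETS core (CGGAAG, or CTTCCG) was in 1 window, against 13.6%. The 8 windows were 57.2% to 87.2% G and C, against a median of 52.4% over all windows. These are matches of letters and do not show that a factor was bound.

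The 4 windows shown, 1 per gene, belong to the genes with a promoter peak within 1 kb that hold an RBPJ core or a C-site, in capitals. For Rbpj the first of its overlapping windows is shown. Each is written 5′ to 3′ on the gene's own strand and ending at the base before the start. Notch2 is at chr3:98013288-98013537 (plus), Jag1 at chr2:137116521-137116770 (minus), Rbpj at chr5:53590096-53590345 (plus) and Hey2 at chr10:30842784-30843033 (minus).
Notch2: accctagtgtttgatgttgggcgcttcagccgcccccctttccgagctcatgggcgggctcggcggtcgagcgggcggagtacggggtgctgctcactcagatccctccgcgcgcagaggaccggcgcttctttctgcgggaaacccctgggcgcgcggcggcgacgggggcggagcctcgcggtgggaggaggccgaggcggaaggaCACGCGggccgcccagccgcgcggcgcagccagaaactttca
Jag1: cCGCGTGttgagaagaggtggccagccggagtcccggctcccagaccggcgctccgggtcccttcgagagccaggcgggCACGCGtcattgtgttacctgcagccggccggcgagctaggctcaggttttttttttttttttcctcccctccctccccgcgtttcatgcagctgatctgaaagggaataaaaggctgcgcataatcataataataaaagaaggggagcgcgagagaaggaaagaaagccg
Rbpj: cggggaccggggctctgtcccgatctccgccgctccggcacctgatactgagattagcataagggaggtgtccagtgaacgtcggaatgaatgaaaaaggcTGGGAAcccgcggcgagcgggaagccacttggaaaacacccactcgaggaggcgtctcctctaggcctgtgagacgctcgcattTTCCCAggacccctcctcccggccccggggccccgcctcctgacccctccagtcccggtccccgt
Hey2: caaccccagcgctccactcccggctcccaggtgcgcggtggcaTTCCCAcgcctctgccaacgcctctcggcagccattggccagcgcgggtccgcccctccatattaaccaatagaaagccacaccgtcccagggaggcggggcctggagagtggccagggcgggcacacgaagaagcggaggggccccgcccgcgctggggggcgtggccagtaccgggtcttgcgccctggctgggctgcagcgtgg

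The Notch2 window holds a C-site 42 bases before the start and 5 GC boxes, and no RBPJ core. The Jag1 window holds C-sites 249 and 171 bases before the start. The Rbpj window holds RBPJ cores 149 and 65 bases before the start, and the Hey2 window 1 at 207 bases. Of these promoters, that of Notch2 had a log2 ratio of 0.55 at its start peak, those of Rbpj 0.11 and 0.28, those of Jag1 -0.25 and -0.35 and that of Hey2 -0.025. The widened intervals of all of them held 0.

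The rest of the pathway was described by a list of 50 other genes, of which 35 had a peak. Their median log2 ratio was -0.20, against -0.093 over all genes and -0.18 over the members, with 27 of 35 (77.1%) below 0, as were 62.6% of all genes. None was lower past 1.5-fold and none was higher, against 6.6% and 1.54% of all genes. The widened interval lay below 0 for 6 of the 35, against 8.42% of all genes, and above 0 for 1, against 1.43%. By role, the median was -0.35 over 3 ligand and receptor genes, 0.036 over 8 genes of the proteases, -0.22 over 4 sugar transferases, -0.13 over 10 coactivators and corepressors and -0.26 over 10 ubiquitin ligases and Numb proteins. None of the 6 further target genes listed (Nrarp, Hes2, Hes3, Hes5, Hes6 and Hes7) had a peak.

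Of the genes with the highest density in their role, Notch4, a receptor of endothelial cells, had 87.4 in SCR and 59.1 in siPiezo2 (-0.56, interval -0.95 to -0.22). Poglut1, which adds glucose to Notch receptors, had 50.2 and 42.3 (-0.24, interval -0.72 to 0.18). Dtx4, a Deltex ubiquitin ligase, had 204 and 225 (0.14, interval -0.064 to 0.33). Among these 3 genes the interval of Notch4 lay clear of 0 and those of Poglut1 and Dtx4 held 0. Fbxw7, of the same role as Dtx4, was denser than it in SCR but not in siPiezo2. It had 215 and 171 (-0.33, interval -0.57 to -0.14, widened -0.67 to -0.053). Numb, an inhibitor of Notch that was chosen after its values were seen, had the highest ratio of the 35 genes, with 111 and 159 (0.51, interval 0.26 to 0.77), and its promoter peak had 88.4 and 135 (0.60).

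**Figure D5:**
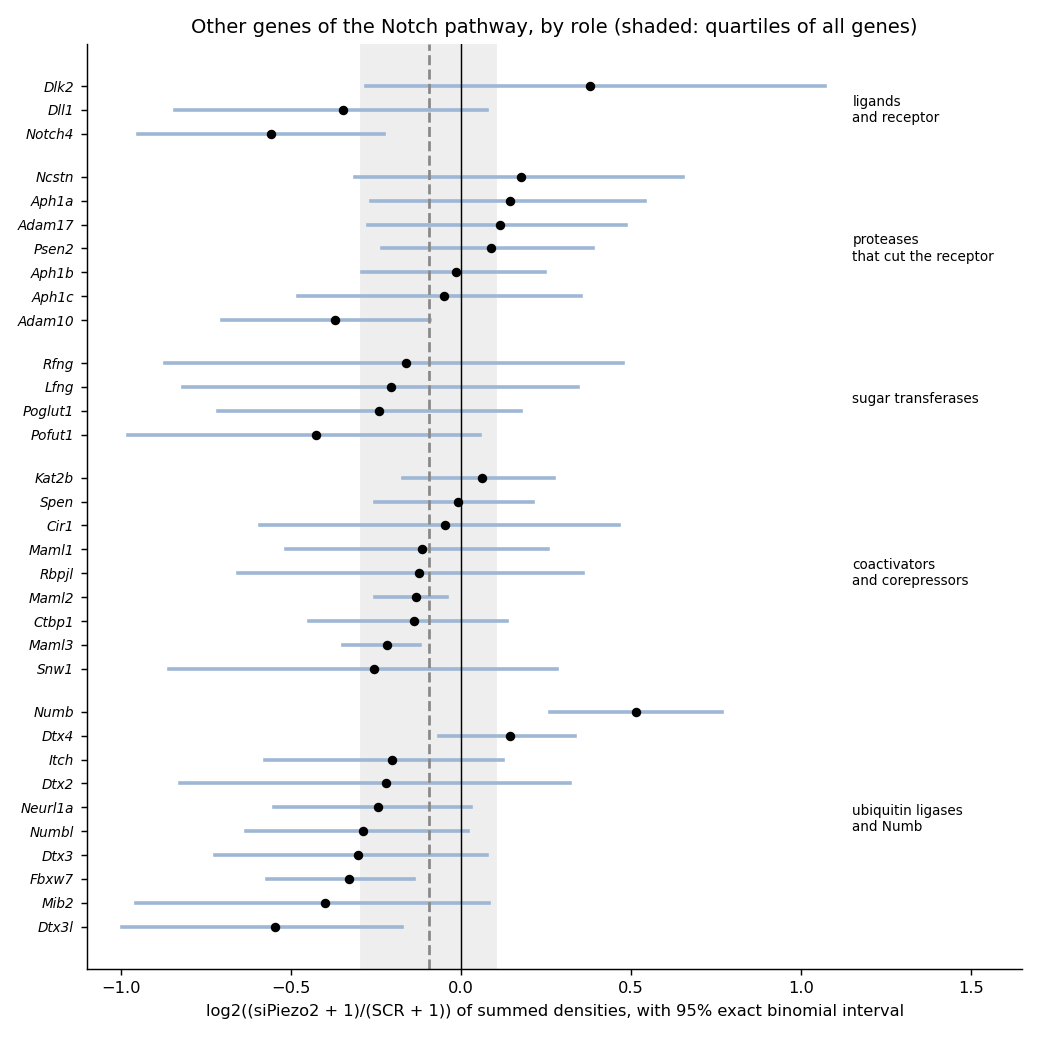
Log2 ratio of summed read density (x axis, log2 scale) of 33 of the 35 other Notch pathway genes with a peak (y axis, grouped by role), 1 library per condition. Points are the ratios, bars their 95% exact binomial intervals, the dashed line the median of all genes (-0.093) and the shaded band their quartiles; Notch4 (-0.56) and Numb (0.51) mark the ends of the range.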

How the data were processed

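The authors deposited 1 table of peaks whose signal columns are read densities per library, which the authors had scaled by a linear fit over peaks called in both libraries. The submitters' processing notes name BWA 0.7.12 and mm10, but gene coordinates in the table are those of GRCm39, and positions are given as in the table. The table's other columns (log2 ratio, mean log2 density, p-values) hold the authors' comparison and were not used as results. Whole reads per 2000 bp window were recovered from the densities for 100% of peaks, within 0.05 reads, with an intercept of -0.2482 and a slope of 0.1738, after taking off 1 read per window that such normalization adds and that cannot be seen in the file. A median peak had 58 and 36 reads. Densities had a pseudocount of 1 and the fold threshold was 1.5. Genes were given by the table's symbols, and intergenic peaks by the nearest start.

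The members, gene lists and motifs were chosen with earlier results of these data known. For each member the peak nearest its start, its strongest peak and each peak past 1.5-fold are named, and among other genes the densest of each role, of which 2 are not reported here. With 1 library per condition no test was made. Alternatives covered the pseudocount (0.1), scaling, peak sets, fold threshold (2) and peaks per gene. Unscaled reads and widened intervals were added after seeing the data. Read recovery was tested on simulated data. Scripts ran under Python 3.11.15 with scipy 1.17.1, pandas 2.3.3 and numpy 2.4.6, and plots were drawn with matplotlib 3.10.9.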

Additional observations from a re-analysis of the deposited data

How the results depend on the processing

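Depth limits single peaks: a median peak held 58 and 36 reads, and no value has a replicate. Against 10 lower and 2 higher peaks, 9 and 4 passed 1.5-fold under median-of-ratios scaling, 10 and 4 with equal total density (10.5% and 4.90% of all peaks), 9 and 5 with recovered reads at the same total (8.21% and 8.35%), and 37 and 0 with unscaled reads (62.8% and 0.436%), where the ratio of library totals (0.597) is kept. Of 17 peaks called in both libraries 1 was lower and 2 were higher (5.79% and 4.41% of all such peaks). Of 39 with separate windows 7 were lower and 1 was higher (14.0% and 3.30%). At 2-fold 4 of 50 were lower and 0 higher (2.76% and 0.504%). Over all peaks, 14.2% were lower and 3.21% higher as deposited, and 8.81% and 6.20% under median-of-ratios scaling. The median over the Notch gene peaks (-0.22 against -0.13 over all peaks) was -0.087 against 0 under median-of-ratios scaling, -0.057 against 0.021 with recovered reads at the same total, 0.12 against 0.0025 with peaks called in both libraries and -0.79 against -0.71 with unscaled reads. The median over the Notch genes (-0.18 against -0.093 over all genes) was -0.041 against 0.043 under median-of-ratios scaling, -0.025 against 0.0086 with peaks called in both libraries and -0.88 against -0.71 with unscaled reads. That over the other pathway genes (-0.20) was -0.067 against 0.043 under median-of-ratios scaling, -0.074 against 0.030 with recovered reads at the same total and -0.81 against -0.71 with unscaled reads. Notch2 turned to 0.55 with its promoter peak alone, and its peak 0.6 kb into the gene was at -0.030 with unscaled reads, where the median of all peaks was -0.71 and each peak is shifted by the library ratio. Of 74 values of single genes under the alternatives, 60 stayed within their interval, and of 100 values of single peaks 88 did. Beyond the common shift of each scaling, the causes of these changes were not tested. No paired analysis was possible because each condition has 1 library.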
